A study of Homo sapiens with 6 samples.

Results

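Glycolysis turns glucose into pyruvate and lactate in the cytosol, and the hypoxia response raises many of its enzymes when oxygen is short. The 43 genes described here were named by symbol and were chosen with earlier results of these data known. Of them, 26 encode glucose and lactate transporters, glycolytic enzymes and the kinases that regulate the route. The other 17 encode the oxygen sensing machinery and genes listed as hypoxia targets. The members are 43 of 56584 gene names in the expression tables. They were compared between 2 lymphoma B cell lines. LY19WT is labelled EZH2-wild type. In LY19Y646F, constitutive expression of EZH2-Y646F is driven by a CMV promoter, per the labels. EZH2 is the methyltransferase of the Polycomb repressive complex that marks histone H3 for silencing. Both lines were untreated, were grown in RPMI medium with fetal bovine serum and were at passages 10 to 15. Polyadenylated RNA of 3 libraries per line was sequenced. The series calls them biological replicates, but the labels do not say whether they came from separate cultures or whether a line is 1 clone, so p-values here reflect the spread among libraries, which may be technical. Introduced and native EZH2 RNA are not told apart in the tables, so EZH2 checks neither label. A line effect and an effect of the introduced EZH2 cannot be told apart with 1 line of each kind.

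In glycolysis, hexokinase traps glucose in the cell, phosphofructokinase makes the committed step, and the lower enzymes recover ATP. Lactate dehydrogenase turns pyruvate into lactate, while the pyruvate dehydrogenase kinases (PDK) hold pyruvate back from the mitochondria. With oxygen present, the EGLN prolyl hydroxylases mark HIF1A for binding by VHL and destruction. Without it, HIF1A pairs with ARNT and binds DNA at the core letters ACGTG or GCGTG. Cultured lymphoma cells run glycolysis with oxygen present, and MYC and AKT signalling are known to raise the same enzymes without HIF1A. HIF1A is regulated mainly through the stability of its protein, which RNA levels do not measure.

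Values are FPKM, fragments scaled by transcript length and by the library's mapped fragments, so levels of different genes can be set side by side per length. The summed FPKM of a library lay between 806102 and 1020940, the number of reads behind it was not given in the sources used here, and precision rests on 3 libraries per line. The 10 highest rows held 27.5% of the sum in LY19WT replicate 3 and 5.71% to 9.38% in the others. The labelled cell type was checked with 7 B cell markers. Their summed level was 396.9 to 589.7 FPKM in LY19WT and 587.1 to 940.4 FPKM in LY19Y646F, with 6 and 7 of the 7 above a mean of 1 FPKM. MS4A1, which encodes CD20, was at 0.0688 to 0.140 FPKM in LY19WT and 83.1 to 118.5 FPKM in LY19Y646F, and the early B cell factor EBF1 at 42.5 to 44.6 and 4.89 to 5.61 FPKM. In 2 libraries the MS4A1 row also named another protein-coding gene. Of 5 myeloid markers, LYZ alone exceeded a mean of 1 FPKM, with 10.1 to 13.4 FPKM in LY19WT and 0.0916 to 0.263 FPKM in LY19Y646F. Summed T and NK cell, erythroid, epithelial, fibroblast and endothelial markers stayed under 2 FPKM per list in every library, and PECAM1, KRT19 and HBB were at 0 in all 6. The lines thus differed in B cell genes beside the genes described below, and the part of that difference in the results was not tested. Whether both lines come from the same parent line is not settled by the labels or these files, and this holds for every difference between LY19Y646F and LY19WT given here. In bulk RNA, fewer cells expressing a gene and less of its RNA per cell cannot be told apart.

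Hypoxia targets differed in both directions. The mitophagy receptors BNIP3 and BNIP3L rose 5.26-fold and 3.36-fold in LY19Y646F and the growth factor gene VEGFA rose 1.93-fold, while NDRG1, a stress-induced gene, was 7.79-fold lower. Among enzymes, the enolase ENO1 rose 2.47-fold and lactate dehydrogenase B (LDHB) 1.57-fold. The row naming HIF1A was lower, with a log2 difference of -1.12. GAPDH, TPI1 and PKM had overlapping libraries. Limma with Benjamini-Hochberg adjustment over 10706 tested genes called 13 of the 25 members that could be tested at an adjusted p under 0.05, 11 higher and 2 lower in LY19Y646F, or 52%. The background was 33.3% of the tested genes (16.8% higher, 16.5% lower), so calls were common between these lines. By class, 6 of 18 tested enzymes and transporters were higher and 1 lower (38.9%), and 5 of 7 tested hypoxia genes were higher and 1 lower (85.7%). The median log2 difference of the tested members was 0.65, with 0.51 for enzymes and 0.97 for hypoxia genes, against -0.03 for all tested genes. P4HA2, KDM4D and PFKFB2 reached the level for testing, a mean of 0.5 FPKM, through LY19Y646F and NDRG1 and ENO2 through LY19WT, so these counts and medians describe the members that passed the filter and are no support for a direction.

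Of the other 18 members, 12 sat in a row that also named some other protein-coding gene in at least 1 library, because the deposited tables list loci as assembled in each library. For these the value is that of the row, and the exact two-sided permutation test over the 6 libraries is given, which cannot go below 0.10. EGLN1 had a failed estimate in 1 library. SLC16A3, CA9 and ANKRD37 were listed at 0 in all 6 libraries, and EGLN3 and ADM were under 0.5 FPKM on average. Counting shared rows, and EGLN1 at its listed values, 37 members averaged at least 0.5 FPKM. In 18 of them (48.6%) the libraries of the lines did not overlap, 13 higher and 5 lower in LY19Y646F, with EGLN1 among the lower. The same held for 44.7% of all genes counted with shared rows, where genes with a failed estimate were left out. The share among members thus lay near the background.

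**Figure D1:**
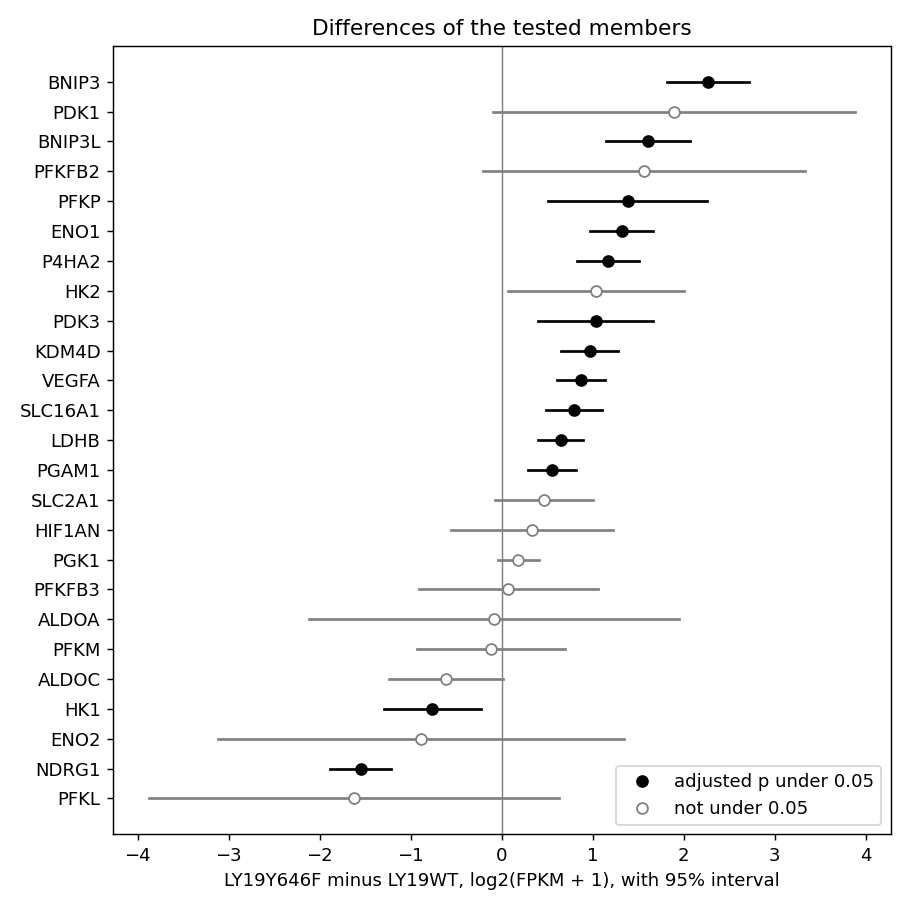
The x axis is the LY19Y646F minus LY19WT difference on the log2(FPKM + 1) scale for the 25 tested members, with bars for limma's 95% interval. Filled points have an adjusted p under 0.05; BNIP3 stands farthest to the right at 2.26 and NDRG1 is the lowest filled point at -1.55.

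The start regions of 3 called members are shown as a description of their letters. They are the 3 with the largest differences among called members with a single entry in the RefSeq promoter table. Each is the 250 bases before the RefSeq start on GRCh38, 5′ to 3′ on the strand of the gene, with every ACGTG or GCGTG on either strand in capitals, so that a palindromic CACGTG counts on both strands.
BNIP3: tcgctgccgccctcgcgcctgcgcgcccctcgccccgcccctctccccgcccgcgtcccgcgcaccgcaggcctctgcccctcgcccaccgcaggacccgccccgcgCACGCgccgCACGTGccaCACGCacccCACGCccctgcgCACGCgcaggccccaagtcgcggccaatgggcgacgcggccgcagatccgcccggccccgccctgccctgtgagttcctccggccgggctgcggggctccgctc
ENO1: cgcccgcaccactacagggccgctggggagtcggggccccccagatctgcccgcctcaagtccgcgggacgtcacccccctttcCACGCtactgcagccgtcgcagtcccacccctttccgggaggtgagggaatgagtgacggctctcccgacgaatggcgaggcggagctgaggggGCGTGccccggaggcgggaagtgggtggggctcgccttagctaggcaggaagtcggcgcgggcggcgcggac
P4HA2: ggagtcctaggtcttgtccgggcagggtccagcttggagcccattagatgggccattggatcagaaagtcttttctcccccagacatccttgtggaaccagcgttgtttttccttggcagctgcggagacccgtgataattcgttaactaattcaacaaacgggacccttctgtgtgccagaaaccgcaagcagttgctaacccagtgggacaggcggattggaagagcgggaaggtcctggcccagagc
These lie at chr10:131981924-131982173, chr1:8878687-8878936 and chr5:132227092-132227341, all on the minus strand. BNIP3 holds 6 matches, clustered near the middle of its sequence, ENO1 holds 2 and P4HA2 holds 0.

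Across the members, 36 of 43 had an entry in the RefSeq promoter table, and 27 of these held at least 1 match in at least 1 entry. Counted over entries, 35 of 64 member promoters held a match (54.7%), against 43.2% of all 35116 promoters in the table. Called members fell on both sides. A match was found in 1 of 7 entries of HK1, in 2 of 4 of PFKP and in the 1 entry of PDK3. LDHB, PGAM1 and KDM4D had none in the single window read. Genes with more entries had more windows in which a match could fall, and the count over genes has no background beside it. A match describes letters and not binding, and no binding was measured here.

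Glucose enters lymphoid cells through SLC2A1 (GLUT1) and SLC2A3 (GLUT3). SLC2A1 measured 14.2, 9.33 and 9.61 FPKM in LY19WT, against 18.7, 14.1 and 13.7 FPKM in LY19Y646F, replicates 1 to 3 in this order here and below. LY19WT replicate 1 was above 2 of the LY19Y646F libraries, so the lines overlapped. The difference was 0.46 on the log2(FPKM + 1) scale (SE 0.21, limma adjusted p = 0.16). SLC2A3 was low, at 0.488, 0.918 and 0.613 FPKM against 0.0430, 0.0373 and 0.0665 FPKM, and shared its row with its near-identical neighbour SLC2A14 in LY19WT replicate 2 and LY19Y646F replicate 3. Every LY19WT library was above every LY19Y646F library, 13.7-fold in the means (exact permutation p = 0.10, the smallest possible). Rows naming its pseudogene copies, nearly all of it the row of SLC2A3P1 joined with PANK3, summed to 17.1, 19.7 and 22.1 FPKM in LY19WT, against 42.1, 54.4 and 52.5 FPKM in LY19Y646F. These rows lay far above SLC2A3 and were higher in LY19Y646F, but the value is that of the row with PANK3. The level of the copies themselves is not known. Reads of these copies cannot be assigned with certainty, and their part in the difference of SLC2A3 was not tested.

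The hexokinases HK1, the widely expressed form, and HK2, the inducible form, had opposite differences. HK1 measured 45.6, 57.2 and 58.8 FPKM in LY19WT, against 23.5, 35.4 and 36.2 FPKM in LY19Y646F. It fell by 0.76 on the log2 scale (SE 0.21, limma adjusted p = 0.042), with no overlap, and it was the sole enzyme called lower. HK2 measured 26.1, 20.0 and 39.3 FPKM in LY19WT, against 44.4, 45.8 and 92.2 FPKM in LY19Y646F. All LY19Y646F values lay above all LY19WT values, with replicate 3 highest in both lines, and the difference of 1.04 (SE 0.38) did not pass (limma adjusted p = 0.099). The HK1 call did not hold when LY19WT replicate 1, 2 or 3 was left out (limma adjusted p = 0.054, 0.13 and 0.125) or LY19Y646F replicate 2 or 3 (limma adjusted p = 0.074 and 0.063). Their spans on hg19 were chromosome 10, 71029740 to 71161638, for HK1 and chromosome 2, 75061108 to 75120486, for HK2.

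Phosphofructokinase has 3 subunit genes: PFKL, the liver form, PFKM, the muscle form, and PFKP, the platelet form. PFKP measured 63.7, 45.4 and 28.0 FPKM in LY19WT, against 86.9, 132.9 and 130.3 FPKM in LY19Y646F. It rose by 1.38 (SE 0.34, limma adjusted p = 0.031), with all LY19Y646F libraries above all LY19WT libraries. The call did not hold without LY19WT replicate 2 or 3 (limma adjusted p = 0.083 and 0.055) or without LY19Y646F replicate 2 or 3 (limma adjusted p = 0.099 and 0.096), and the row also named the noncoding PITRM1-AS1 in 3 libraries. PFKL measured 113.6, 25.9 and 21.2 FPKM against 33.9, 8.13 and 6.30 FPKM. Replicate 1 stood far above the others in both lines, and the difference of -1.63 (SE 0.89) did not pass (limma adjusted p = 0.23), although it did with library weights (-1.65, limma adjusted p = 0.028), a setting in which 53.9% of the tested genes were called. Its row also named noncoding genes in the LY19WT libraries only. PFKM overlapped, at 71.3, 57.3 and 69.9 against 85.1, 69.8 and 37.4 FPKM (limma adjusted p = 0.81).

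Of the remaining upper steps, no difference passed. The isomerase GPI, in a row shared with PDCD2L in all libraries, measured 205, 126.7 and 130.003 FPKM in LY19WT, against 286, 175 and 159 FPKM in LY19Y646F (exact permutation p = 0.30). The libraries overlapped through the high replicate 1 of LY19WT. The aldolase ALDOA measured 1349, 445 and 473 FPKM against 1686, 520.2 and 272 FPKM, again with replicate 1 highest in both lines (limma adjusted p = 0.95). ALDOC, the brain form, was at 7.47, 5.28 and 4.47 against 3.84, 3.98 and 2.36 FPKM. Its lines did not overlap, and its difference of -0.62 did not pass (SE 0.25, limma adjusted p = 0.12). The triose isomerase TPI1 measured 619, 553 and 448 against 621, 453 and 415 FPKM, with LRRC23 in the row in 3 libraries, and overlapped (exact permutation p = 0.80).

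In the lower steps ENO1 and PGAM1 rose, and the others had no difference that passed. ENO1, which makes phosphoenolpyruvate (hg19 chromosome 1, 8921061 to 8939308), measured 522, 398 and 377 FPKM in LY19WT, against 1083, 1053 and 1064 FPKM in LY19Y646F. The LY19Y646F libraries lay close together and far above LY19WT, a rise of 1.32 (SE 0.14, limma adjusted p = 0.0014). Its start region with 2 matches to the HIF core is printed above. The mutase PGAM1 rose by 0.55 (SE 0.10, limma adjusted p = 0.012), from 119.7, 104 and 104 to 175, 158 and 149.6 FPKM, without overlap. That call was lost without LY19WT replicate 2 (limma adjusted p = 0.052). PGK1, the first ATP-forming enzyme, measured 854, 883 and 908 against 902, 1089 and 1021 FPKM (difference 0.18, SE 0.09, limma adjusted p = 0.19). It passed in 1 of the 6 fits that left out 1 library, that without LY19Y646F replicate 1 (0.26, limma adjusted p = 0.039). The value of that library lay within the LY19WT range, so leaving it out favours a call. In that fit 2085 of 10668 genes were called higher and 1936 lower.

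GAPDH, used widely as a reference gene, measured 3792, 2982 and 2022 FPKM in LY19WT, against 3677, 2091 and 1867 FPKM in LY19Y646F. Replicate 1 was highest in both lines, and in both of those libraries, and no other, the row also named NCAPD2. The lines overlapped (exact permutation p = 0.70). The pyruvate kinase PKM measured 972, 831 and 763 FPKM against 807, 878 and 1081 FPKM, and only LY19Y646F replicate 3, the highest, shared its row, with CELF6, HEXA and PARP6 (exact permutation p = 0.60). Its log2 difference of 0.10 became -0.016 without that library. The neuronal enolase ENO2 was at 7.21 FPKM in LY19WT replicate 1, listed at 0 in LY19WT replicates 2 and 3, and at 0.147, 0 and 0.132 FPKM in LY19Y646F, so its mean rests on 1 library.

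Of the 4 genes of lactate production and export, LDHB and SLC16A1 could be tested and both rose, next to 16.8% of all tested genes called higher. LDHB, which favours the turn of lactate back to pyruvate, measured 1809.95, 1557 and 1651 FPKM in LY19WT, against 2383, 2659 and 2825 FPKM in LY19Y646F, without overlap. It rose by 0.65 (SE 0.10, limma adjusted p = 0.0052). LDHA, the form best known as a HIF and MYC target, measured 860.5, 1007 and 1101 FPKM against 1093, 1479.65 and 1377 FPKM. Its libraries overlapped, and the 3 highest values were those of rows shared with LDHC or LDHAL6A (exact permutation p = 0.20). The lactate transporter SLC16A1 (MCT1) rose by 0.79 (SE 0.12, limma adjusted p = 0.0060), from 58.5, 68.6 and 75.2 to 109, 119 and 124 FPKM. Another lactate transporter, SLC16A3 (MCT4), a HIF target, was listed at 0 in all libraries. The authors' deposited table gives SLC16A3 0.386 FPKM in LY19WT, against 2.48 FPKM in LY19Y646F.

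**Figure D2:**
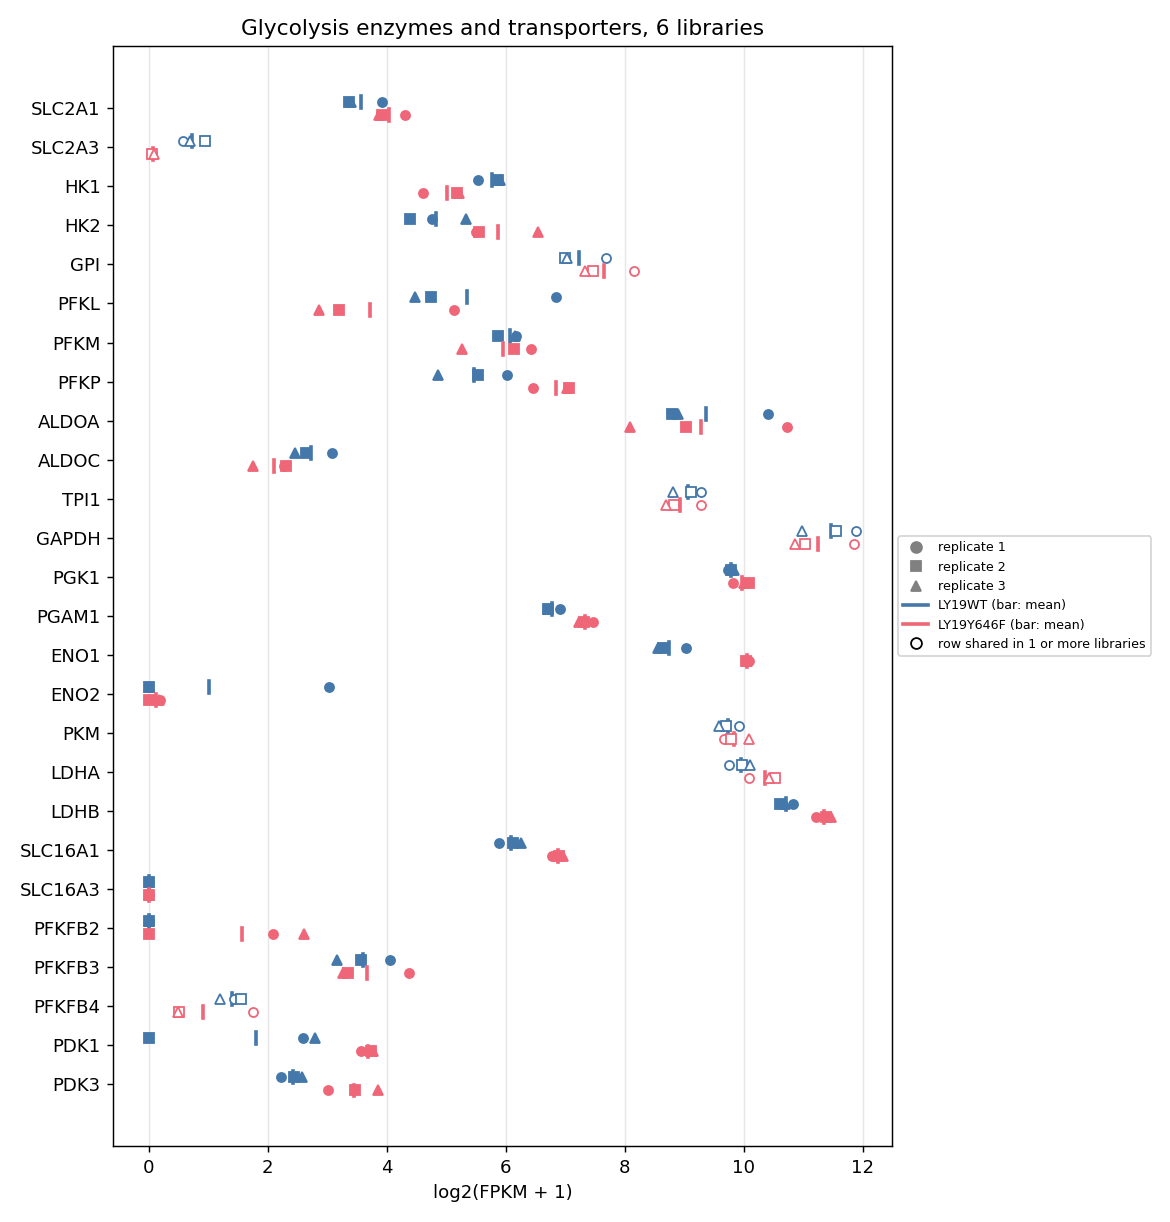
Each row is an enzyme or transporter, with log2(FPKM + 1) on the x axis for 3 LY19WT libraries (blue) and 3 LY19Y646F libraries (red), bars for the line means and open symbols where the row names another protein-coding gene in at least 1 library. ENO1, LDHB and SLC16A1 show separate groups, while ALDOA and PFKL show replicate 1 (circles) apart from the others in both lines.

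Regulatory kinases were mostly low. PDK3, a pyruvate dehydrogenase kinase that HIF1A can induce, measured 3.67, 4.46 and 4.99 FPKM in LY19WT, against 7.04, 10.1 and 13.5 FPKM in LY19Y646F. It rose by 1.03 (SE 0.25, limma adjusted p = 0.029) without overlap. The PDK3 row also named the noncoding GS1-358P8.4 in all LY19Y646F libraries, but of the LY19WT libraries only in replicate 2. The part of this in the difference was not tested. The call was lost without any of LY19WT replicates 1, 2 and 3 (limma adjusted p = 0.084, 0.083 and 0.064) and without LY19Y646F replicate 2 or 3 (limma adjusted p = 0.090 and 0.062). PDK1 measured 5.06, 0 and 5.96 FPKM against 10.8, 12.3 and 12.7 FPKM, and did not pass with the library listed at 0 (1.89, SE 0.79, limma adjusted p = 0.13). Without that library, LY19WT replicate 2, the difference was 0.99 (limma adjusted p = 0.016), the 1 of the 6 fits leaving out 1 library that called PDK1. The library left out is the discordant one, so this fit is no support for a difference. In it 1316 of 10591 genes were called higher and 1385 lower. The interval deposited with the PDK1 estimate of LY19WT replicate 3 ran from 0 to 13.5 FPKM. The authors' deposited table gives PDK1 11.9 FPKM in LY19WT, against 28.7 FPKM in LY19Y646F.

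The PFKFB enzymes set the level of the activator of phosphofructokinase. PFKFB2 was at or near 0 in LY19WT and at 3.25, 0 and 5.14 FPKM in LY19Y646F, so 2 of 3 libraries held it. Its difference of 1.57 (SE 0.70) did not pass (limma adjusted p = 0.15). It passed in 1 of the 6 fits that left out 1 library, that without LY19Y646F replicate 2 (2.35, limma adjusted p = 0.0038). That library is the LY19Y646F library listed at 0, so this fit is no support for a difference. In it 1266 of 10698 genes were called higher and 1445 lower. PFKFB3, the main form of proliferating cells, measured 15.6, 10.9 and 7.93 against 19.8, 9.25 and 8.61 FPKM and overlapped (limma adjusted p = 0.91). PFKFB4, in a row shared with UCN2, measured 1.72, 1.92 and 1.29 against 2.35, 0.430 and 0.406 FPKM and overlapped through LY19Y646F replicate 1, where the row also named COL7A1 (exact permutation p = 0.40).

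The oxygen sensing genes were hard to measure here, since 4 of the 7 shared rows and EGLN1 had a failed estimate. HIF1A, the oxygen-regulated subunit, measured 62.4, 70.3 and 73.5 FPKM in LY19WT, against 27.0, 33.3 and 33.5 FPKM in LY19Y646F. The lines were well apart, but the row (hg19 chromosome 14, 62162231 to 62263146) also named SNAPC1 in all 6 libraries, so the shares of these neighbours cannot be told apart. The log2 difference was -1.12 (exact permutation p = 0.10). With shared rows entered for every gene they name, the HIF1A row had a limma adjusted p of 0.0034. In that setting 26.1% of the 17294 genes were called, 13.2% higher and 12.9% lower, both as shares of all 17294.

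EGLN1 (PHD2), the main prolyl hydroxylase, measured 18.8, 22.9 and 50.6 FPKM in LY19WT, against 6.85, 7.55 and 5.24 FPKM in LY19Y646F, where the estimate of replicate 2 was marked as failed. All LY19WT libraries were above all LY19Y646F libraries, 4.70-fold in the means (log2 difference -1.96, exact permutation p = 0.10). With failed estimates kept at their listed value, a setting chosen after seeing the data in which 33.2% of genes were called, limma gave an adjusted p of 0.015. The authors' deposited table gives EGLN1 36.5 FPKM in LY19WT, against 13.2 FPKM in LY19Y646F. EGLN2 measured 30.9, 11.9 and 12.4 against 70.0, 0 and 22.1 FPKM in a row shared with RAB4B and MIA, and overlapped (exact permutation p = 0.90). EGLN3, an inducible hydroxylase, was listed at 0 in LY19WT and at 0, 0.162 and 0.162 FPKM in LY19Y646F.

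ARNT, the constant partner of HIF1A, measured 14.0, 0 and 18.9 FPKM against 9.62, 12.7 and 12.4 FPKM. The value of 0 came from 1 of the 3 rows shared with CTSK, and the log2 difference of 0.90 became -0.47 without that library, LY19WT replicate 2. VHL, the adaptor that leads hydroxylated HIF1A to destruction, measured 154.9, 40.1 and 164.8 FPKM against 359.5, 55.4 and 57.9 FPKM. The 3 highest values were those of rows shared with BRK1 or with FANCD2, ARPC4 and TTLL3, and the 3 rows without another protein-coding gene lay between 40.1 and 57.9 FPKM. The authors' deposited table gives VHL 8.98 FPKM in LY19WT, against 15.6 FPKM in LY19Y646F. HIF1AN, the asparagine hydroxylase that blocks HIF activity, overlapped at 6.64, 3.06 and 6.83 against 9.50, 6.77 and 4.94 FPKM (difference 0.33, limma adjusted p = 0.51).

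Of the 10 hypoxia targets 6 were tested, of which 5 rose and 1 fell, where 33.3% of all tested genes were called. P4HA2, KDM4D and NDRG1 reached the filter through the line in which they are high, so the tally is no result about the targets as a group. BNIP3 (hg19 chromosome 10, 133781578 to 133795435) measured 10.1, 8.68 and 7.51 FPKM in LY19WT, against 55.4, 44.2 and 38.9 FPKM in LY19Y646F. Every LY19Y646F library was several times above every LY19WT library, a rise of 2.26 (SE 0.18, limma adjusted p = 0.00051), and its start region with 6 matches is printed above. BNIP3L, its paralog, measured 6.91, 4.53 and 6.25 FPKM against 17.4, 22.0 and 20.1 FPKM and rose by 1.61 (SE 0.18, limma adjusted p = 0.0020) without overlap. VEGFA, the vascular growth factor, measured 8.85, 8.81 and 8.04 FPKM in LY19WT, against 15.7, 17.4 and 16.3 FPKM in LY19Y646F. The libraries of each line lay close together, and VEGFA rose by 0.87 (SE 0.10, limma adjusted p = 0.0023).

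P4HA1 and P4HA2 encode the catalytic subunits of collagen prolyl hydroxylase. P4HA2, whose start region printed above holds no match, measured 0.208, 0.338 and 0.244 FPKM in LY19WT, against 1.57, 1.94 and 2.03 FPKM in LY19Y646F. It rose by 1.17 (SE 0.14, limma adjusted p = 0.0021), or 7.01-fold in the means, from a low level. The intervals deposited with its LY19WT estimates ran from 0 to 0.557, 0.755 and 0.652 FPKM. That of LY19Y646F replicate 1 ran from 0 to 28.9 FPKM, and those of replicates 2 and 3 began at 1.53 and 1.55 FPKM. P4HA1 overlapped, at 15.3, 17.1 and 18.3 against 17.2, 21.1 and 64.5 FPKM, and the highest value came from the sole library in which its row also named ECD (exact permutation p = 0.20). KDM4D, a histone H3 demethylase, was at 0.201, 0.236 and 0.153 FPKM in LY19WT, against 1.47, 1.22 and 1.32 FPKM in LY19Y646F. It rose by 0.97 (SE 0.12, limma adjusted p = 0.0030), also from a low level.

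The targets that were lower in LY19Y646F were low to begin with. NDRG1 measured 3.01, 3.32 and 2.90 FPKM in LY19WT, against 0.513, 0.384 and 0.288 FPKM in LY19Y646F. It fell by 1.55 on the log2 scale (SE 0.13, limma adjusted p = 0.00067), and no library overlapped. The intervals deposited with its LY19Y646F estimates ran from 0 to 1.07, 0.867 and 0.753 FPKM. Those of LY19WT began at 2.40, 2.72 and 2.29 FPKM. ADM, the vasodilator adrenomedullin, was not tested because of its low mean, with 1.41, 0.484 and 0.643 FPKM in LY19WT, against 0.0606, 0.0114 and 0 FPKM in LY19Y646F (exact permutation p = 0.10). The lines did not overlap, as with NDRG1. CA9, the carbonic anhydrase often used to mark hypoxic tumours, was listed at 0 in all 6 libraries. ANKRD37 was too, although the authors' deposited table gives it 1.30 FPKM in LY19WT, against 0.272 FPKM in LY19Y646F.

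**Figure D3:**
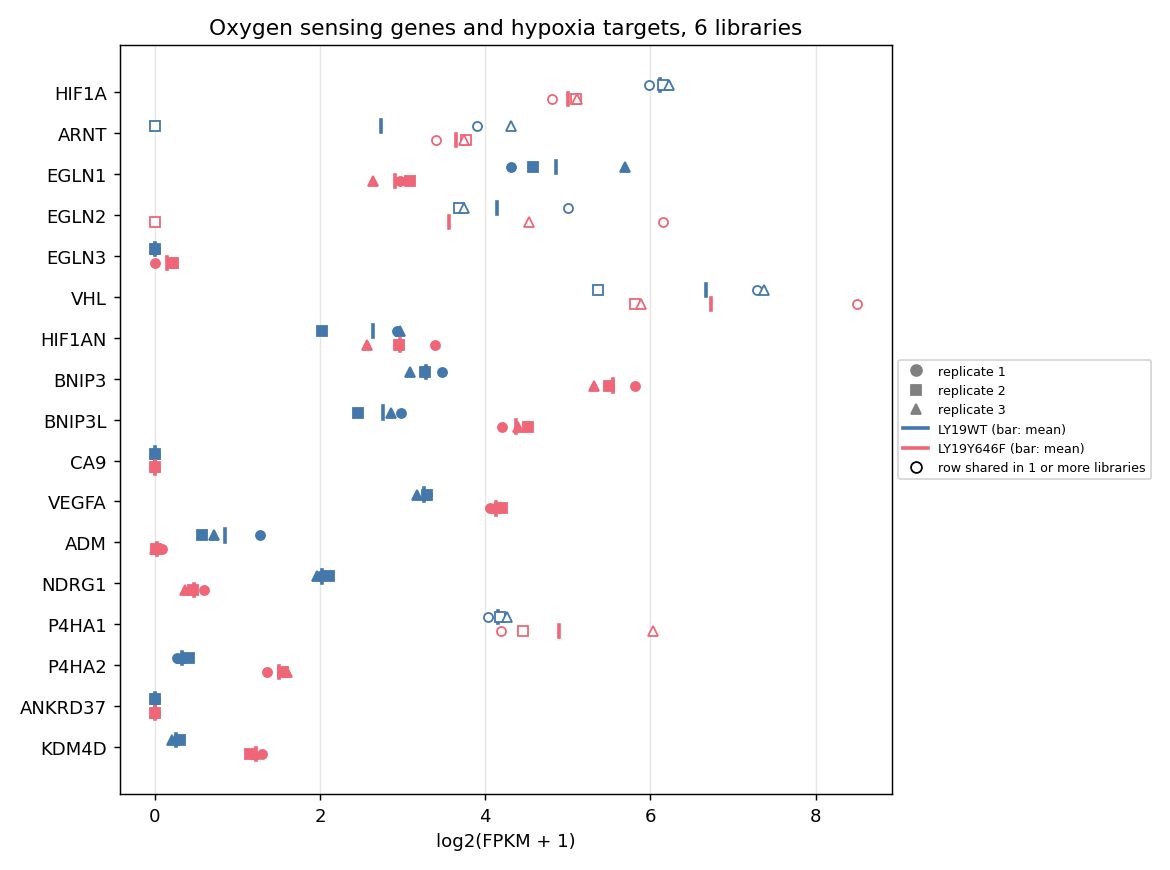
Each row is an oxygen sensing gene or hypoxia target, drawn with log2(FPKM + 1) on the x axis and symbols as for the enzymes; the failed EGLN1 estimate is drawn at its listed value. BNIP3, BNIP3L, VEGFA, P4HA2 and KDM4D lie to the right in LY19Y646F, HIF1A, EGLN1, ADM and NDRG1 to the left, and VHL, EGLN2 and ARNT spread widely within a line.

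The hypoxia target calls held without any 1 library, and 4 of the 7 enzyme calls did not. BNIP3, BNIP3L, VEGFA, NDRG1, P4HA2, KDM4D, ENO1, LDHB and SLC16A1 were called in each of the 6 fits that left out 1 library. PGAM1 was called in 5 of these 6, PFKP in 2, and HK1 and PDK3 in 1 each.

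Because FPKM is per length, isozymes were also compared as shares of their family's summed FPKM in each library. HK2 held 36.4%, 25.9% and 40.1% of HK1 plus HK2 in LY19WT and 65.4%, 56.4% and 71.8% in LY19Y646F. The majority isozyme thus differed, with means of 34.2% ± 7.35 and 64.5% ± 7.76 (SD, n = 3 each) and no overlap. PFKP held 25.6%, 35.3% and 23.5% of the phosphofructokinase sum in LY19WT and 42.2%, 63.0% and 74.9% in LY19Y646F. PFKL held 45.7%, 20.2% and 17.8% and then 16.5%, 3.86% and 3.62%, so the platelet form was the larger and the liver form the smaller share in LY19Y646F, again without overlap. PFKM held 28.7%, 44.5% and 58.7% against 41.3%, 33.1% and 21.5%, with overlap. For HK2, PFKP and PFKL the exact permutation p was 0.10, the smallest possible, and 0.28 after adjustment over the 17 shares computed. LDHB held 62.8% ± 4.30 of LDHA plus LDHB in LY19WT and 66.7% ± 2.21 in LY19Y646F (SD, n = 3 each), with overlap (exact permutation p = 0.30). LDHB RNA exceeded LDHA RNA per length in all 6 libraries.

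**Figure D4:**
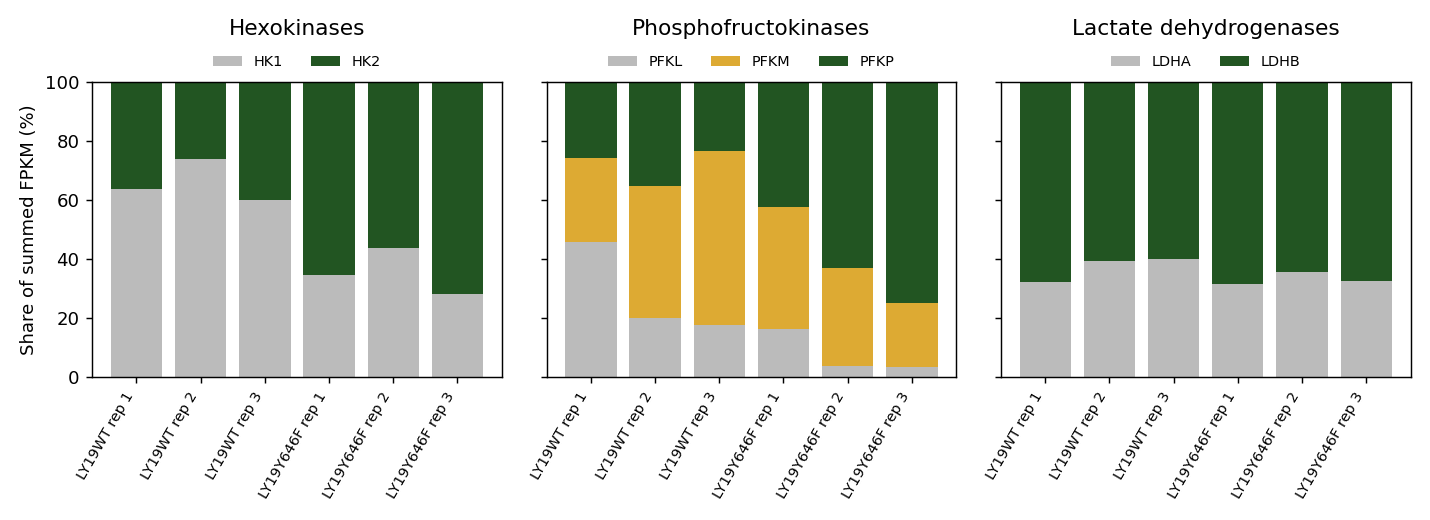
Stacked bars give the share (%) of each isozyme in the summed FPKM of its family for the 6 libraries. HK2 holds 25.9% to 40.1% in LY19WT and 56.4% to 71.8% in LY19Y646F, PFKP expands as PFKL shrinks, and the lactate dehydrogenase shares overlap.

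Several enzymes were highest in the first library of both lines. Replicate 1 was the highest of its line in both lines for 13 of the 37 members averaging at least 0.5 FPKM (35.1%). This was so for 21.2% of all genes counted with shared rows, where genes with a failed estimate were left out. It was 11 of 24 enzymes (45.8%) and 2 of 13 hypoxia genes (15.4%). PFKL in replicate 1 was 4.82 times the mean of replicates 2 and 3 in LY19WT and 4.70 times in LY19Y646F. For ALDOA the ratios were 2.94 and 4.26, and for the row naming EGLN2 2.55 and 6.34, with LY19Y646F replicate 2 of that row listed at 0. These 3 members exceeded a ratio of 2 in both lines, as did 6.44% of all genes. Without replicate 1 of both lines, a setting chosen after seeing the data in which 43.3% of 10578 genes were called, 8 enzymes were higher and 2 lower, and hypoxia genes were 5 and 1 as before. SLC2A1 (0.51, limma adjusted p = 0.016), PGK1 (0.24, limma adjusted p = 0.048) and PFKL (-1.58, limma adjusted p = 0.013) then passed. With shared rows entered as well, also chosen after seeing the data, 35.1% of 16836 genes were called, and the rows naming LDHA (0.44, limma adjusted p = 0.038) and GPI (0.38, limma adjusted p = 0.044) passed while PGK1 did not (limma adjusted p = 0.062). What set replicate 1 apart was not tested.

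**Figure D5:**
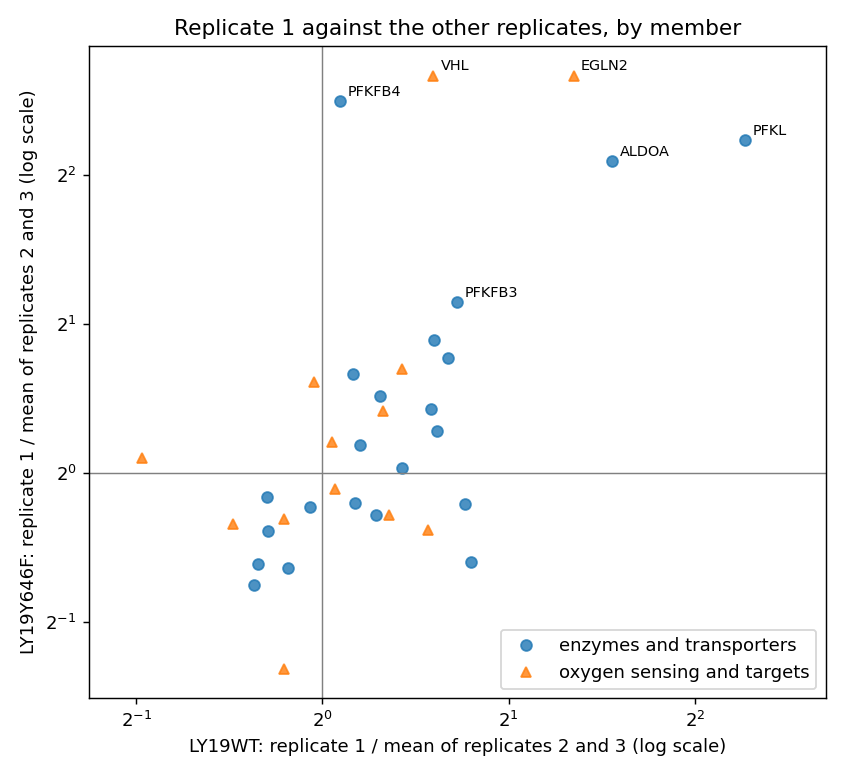
Each point is a member with a mean of at least 0.5 FPKM and a ratio above 0 in both lines. Single libraries may be listed at 0. The axes, both on a log scale, give replicate 1 divided by the mean of replicates 2 and 3 in LY19WT (x) and LY19Y646F (y). Of 35 members, 17 are above 1 in both lines and 9 below 1 in both; PFKL, ALDOA and the row naming EGLN2 are at the upper right.

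The authors' deposited table names 26 of the 43 members, and 12 of the 13 called ones are among them, each with the same direction there. At least 2-fold differences in the authors' deposited table were found for 8 members higher and 5 lower in LY19Y646F, where 43.9% of its 13674 genes differed as much, 21% higher and 22.9% lower. BNIP3 is at 6.66 and 31.1 FPKM and NDRG1 at 6.33 and 0.431 FPKM in the authors' deposited table. ENO1 is at 565 and 1228 FPKM there, in the authors' deposited table, and GAPDH at 2428 and 2399 FPKM. PFKP differed by 1.38-fold in the authors' deposited table, less than the 2.55-fold of the library means. The samples behind that table are the same, so it is not separate evidence.

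Other genes of the pathway, from lists chosen with earlier results of these data known, moved as follows. Of 17 tested other hypoxia targets 6 rose and 0 fell (35.3%), with a median difference of 0.17. VLDLR, a lipoprotein receptor, rose from 0.126, 0.230 and 0.504 to 4.11, 5.78 and 5.50 FPKM (2.25, SE 0.19, limma adjusted p = 0.00063). AK4, a mitochondrial adenylate kinase, rose from 8.06, 8.59 and 10.8 to 52.9, 49.8 and 33.5 FPKM (2.17, SE 0.22, limma adjusted p = 0.0013). MXI1, a MYC antagonist, and FAM162A, a hypoxia-induced mitochondrial protein, rose by 1.09 and 1.57 (limma adjusted p = 0.0023 and 0.0026). Neither line's libraries overlapped in any of these 4 genes. The share called lay near the 33.3% of all tested genes (16.8% called higher, 16.5% lower), and VLDLR reached the filter only through LY19Y646F.

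Of 9 other tested HIF pathway genes 2 rose and 1 fell, the same share as the 33.3% of all tested genes. TCEB1, elongin C of the VHL complex, rose from 106 ± 14.3 to 185 ± 14.8 FPKM (SD, n = 3 each, limma adjusted p = 0.0073), and the ubiquitin ligase SIAH2, which targets EGLN proteins, from 15.2 ± 2.41 to 23.6 ± 0.952 FPKM (limma adjusted p = 0.021). CITED2, which competes with HIF1A for its coactivators, fell from 11.5 ± 0.294 to 5.15 ± 0.847 FPKM (limma adjusted p = 0.0034). The 3 libraries of a line were apart from the other line's for each.

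Where pyruvate enters the mitochondria, 6 of 13 tested genes rose and 0 fell (46.2%, against 33.3% of all tested genes called and 16.8% called higher), with a median of 0.74. PDHA1, the subunit of pyruvate dehydrogenase that PDK enzymes phosphorylate, rose from 199.9, 166.8 and 197.5 to 429.7, 427.5 and 428.1 FPKM (1.19, SE 0.09, limma adjusted p = 0.00051). The LY19Y646F libraries hardly differed among themselves. The partner subunits DLAT (0.90), PDHX (0.83) and DLD (0.74) rose as well, with limma adjusted p of 0.0039, 0.0079 and 0.011. Of 10 tested other isozymes of the route 3 rose and 2 fell (50%, beside the same 33.3%), with a median of -0.32. The phosphatase FBP1, which runs the phosphofructokinase step backwards, was listed at 0 in LY19WT and at 1.86, 1.56 and 0.836 FPKM in LY19Y646F (limma adjusted p = 0.0069), and reached the filter through LY19Y646F alone. The lactate and pyruvate transporter SLC16A7 rose by 0.83, while the myo-inositol transporter SLC2A13 and C12orf5, the fructose bisphosphatase TIGAR, fell by 0.70 and 0.64 on the log2 scale (limma adjusted p = 0.022, 0.011 and 0.024).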

How the data were processed

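Reads were aligned with STAR 2.5.3a and processed with Cufflinks 2.2.1 and Cuffdiff 2.2.1 on hg19, per the submitters' processing notes. The authors deposited 1 table of FPKM per gene for each library and 1 table of their Cuffdiff comparison, which holds line means in FPKM and log2 fold changes but no p-value column, per the file headers. Libraries came from a stranded mRNA kit and single-end reads, per the labels' protocols. Whether strand was used in quantification, and read totals, are not given in the sources used here, so no count model or detection floor is given. Intervals deposited with the FPKM estimates did not enter the fit.

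Groups and replicate numbers came from the sample titles. Rows were joined by gene symbol. A row counted for a gene when it was the only protein-coding name in it (gene types from GENCODE v29, no coordinates of that build used). A gene was left out of the fit if in any library its row named a further protein-coding gene or its estimate had failed. Those averaging 0.5 FPKM or more were fitted on the log2(FPKM + 1) scale by limma 3.58.1 under R 4.3.3 (lmFit, eBayes with trend, two-sided, Benjamini-Hochberg adjustment over 10706 genes, threshold 0.05). This scale understates changes of low genes. Shared rows and isozyme shares had exact two-sided permutation tests in Python 3.11.15 (pandas 2.3.3, numpy 2.4.6, matplotlib 3.10.9). The fit was also run on simulated data with independent normal noise, without shared rows or an effect of replicate number. That run cannot show that the fit suits these libraries.

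The members and lists were chosen with earlier results of these data known. Every member is named. Values of all libraries are given for a set list of 10 central members, for the called members with the 12 largest differences and for members in shared rows. Up to 4 called genes with the smallest adjusted p are named per list of other genes. A list of signalling regulators is not reported here. Alternatives were another pseudocount (0.1), filter (2 FPKM or none), quantile or top-row-free scaling, library weights, rows with 1 name, shared rows entered for each gene, a replicate block and leaving out each library. Sequences are from RefSeq on GRCh38, and coordinates of genes are those of the files on hg19.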

Additional observations from a re-analysis of the deposited data

How the results depend on the processing

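With all libraries 3562 genes were called, of which 6 enzymes were higher and 1 lower, and 5 hypoxia genes higher and 1 lower. Fewer low genes in the test gave 3 hypoxia genes higher and 0 lower (filter at 2 FPKM), and no filter gave 0 enzymes and 2 hypoxia genes lower. With library weights 5771 genes were called, 9 enzymes were higher and 2 lower, with SLC2A1 (adjusted p = 0.016), PGK1 (0.0091), PDK1 (0.030) and PFKL (0.028) gained. Rows with 1 name left 3 enzymes higher, since ENO1, PFKP and PDK3 drop out. Shared rows entered for each gene gave 0 enzymes and 2 hypoxia genes lower. Settings chosen after seeing the data gave 2 hypoxia genes lower (failed estimates kept) and 2 enzymes lower (without replicate 1 of both lines). Leaving out 1 library gave 2701 to 4021 called genes, 4 to 7 enzymes higher, 0 to 1 enzymes lower, 5 hypoxia genes higher and 1 lower. The replicate block gave 3879 called genes, 7 enzymes higher and 2 lower, and 5 hypoxia genes higher and 1 lower: SLC2A1 (adjusted p = 0.032), HK2 (0.016) and PFKL (0.0033) passed with it and PFKP (0.085) did not. The numbers are not shown to pair the libraries. Deviations of same-numbered libraries correlated at 0.26, 0.099 and 0.13. Each library correlated best with its own number, a hint from the data and not the design.

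Log2 differences changed sign for PFKM (0.0275 with weights, -0.36 to 0.22 leaving out 1 library), PFKFB3 (-0.12 with weights, -0.055 without both replicates 1, -0.28 to 0.30 leaving out 1 library, negative without LY19WT replicate 3, -0.14, or LY19Y646F replicate 1) and ALDOA (-0.80 to 0.51 leaving out 1 library, positive without LY19WT replicate 1, 0.43, or LY19Y646F replicate 2, 0.043, or 3). So they did for the rows naming PKM (-0.016 to 0.20, negative without LY19Y646F replicate 3), ARNT (-0.47 to 1.69, negative without LY19WT replicate 2), EGLN2 (-1.88 to 1.20, positive without LY19Y646F replicate 2) and VHL (-0.52 without both replicates 1, -0.60 without LY19WT replicate 2, -0.82 without LY19Y646F replicate 1). The share difference in percentage points ranged from -0.67 to 0.0086 for ENO2 (positive without LY19WT replicate 1) and from -27.4 to 1.57 for PDK3 (positive without LY19WT replicate 2) leaving out 1 library. None of these differences was called. HK1 also lost its call without a filter (adjusted p = 0.066) and with shared rows entered (0.057), and PFKP without a filter (0.051). The cause was not tested.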

Other observations

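Side routes of glucose use differed gene by gene. Of 17 tested genes of the pentose phosphate route, glycogen and glycerol phosphate, 3 rose and 3 fell (35.3%, near the 33.3% of all tested genes), with a median log2 difference of -0.49. GPD2, the mitochondrial glycerol phosphate dehydrogenase that passes electrons of cytosolic NADH to the respiratory chain, fell from 8.87, 10.9 and 11.1 FPKM in LY19WT to 0.694, 0.739 and 0.685 FPKM in LY19Y646F (limma adjusted p = 9.7e-05). The glycogen phosphorylase PYGL was at 0.0144, 0 and 0 FPKM in LY19WT, against 3.02, 3.51 and 3.64 FPKM in LY19Y646F (limma adjusted p = 0.00018), and reached the filter through LY19Y646F alone. RPIA, the isomerase that makes ribose phosphate, rose from 50.4 ± 1.22 to 92.4 ± 1.14 FPKM (SD, n = 3 each, limma adjusted p = 0.00066), and UGP2, which makes UDP-glucose for glycogen, fell from 53.7 ± 2.60 to 31.4 ± 1.86 FPKM (limma adjusted p = 0.0025). The libraries of the lines did not overlap in any of these 4 genes. Without replicate 1 of both lines, 7 of these 17 genes were lower and 3 higher, where 22.1% of all tested genes were lower and 21.2% higher.

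Pseudogene copies named after 15 of the members, 107 in all, are also listed in the tables, 58 of them for GAPDH. The summed copies of LDHA and TPI1 stood at 9.06% and 14.9% of the level of the parent gene over the 6 libraries, and those of GAPDH at 3.05%. How reads were divided between parent and copy is not given in the sources used here, so the levels of these enzymes are uncertain to an extent that was not measured. These sums count rows shared with other genes. The rows naming copies of SLC2A3, described with that gene, exceeded it nearly wholly through the row joined with PANK3. The level of those copies is thus not known. The PGAM1 copies summed to 366.8 FPKM in LY19Y646F replicate 1, where PGAM1P5 shares a row with METAP2, and to 0.525 to 9.61 FPKM in the other libraries.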
